A study of Homo sapiens with 4 samples.

Results

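A set of 977 short promoter regions with a high H3K27ac pileup was examined in control KGN cells, an established human line derived from a granulosa cell tumor of the ovary. They were chosen from the authors' control list, of which the 19110 H3K27ac regions on chromosomes 1 to 22 and X were used. The 3 criteria were an annotation within 1 kb of a gene start, a pileup of at least 25 and a length of at most 600 bp. Pileup is the number of fragments of the immunoprecipitated (IP) library that cover the summit, the highest point of a region. Control pileups rose in steps of 0.937, which was read as scaling by the peak caller to 0.937 per fragment. On that reading the lowest pileup kept, 25.3, stood for 27 fragments. The choice therefore rests on measured height and length, and both are given below as a description. In all, 10934 control regions carried the same annotation, and 8.94% of them were both this short and this tall.

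The testosterone group was KGN cells given testosterone, at 10 um in the spelling of the labels, for 24 h, and the control group was KGN cells labelled as control, both grown in medium with serum and otherwise alike in the labels. No vehicle is named for the controls, and the treatment field of the protocols gives testosterone for every library, so the groups follow the titles. Each group had 1 IP library and 1 input library (chromatin sequenced without immunoprecipitation), 4 in all, and the authors' list for each group rests on 1 IP against its own input. With 1 IP library per group there was no replicate, and no test or p-value is given between groups or between sets of regions. Shares have Wilson 95% intervals, which cover counting error only. Library totals were not used here, so depth is known only through the pileups. The testosterone list held 604 regions on the same chromosomes. Of 8 granulosa cell markers, FOXL2 alone had a control promoter region, as tall as the lower limit (pileup 25.3) but 1701 bp long, so that no marker of the cell type was among the narrow tall regions. With 8.94% of all control promoter regions narrow and tall, an absence that rests on 1 marker does not set the markers apart. Both epithelial markers (KRT18 and EPCAM) and 1 of 4 oocyte markers (GDF9) had a control promoter region, none of them narrow and tall, and the 4 theca, 2 leukocyte and 2 endothelial markers had none.

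Acetylation of histone H3 at lysine 27 is laid down by the acetyltransferases p300 and CBP on nucleosomes beside active promoters and enhancers. At an active promoter the start itself is kept largely free of nucleosomes, and the nucleosome just inside the gene and the one just upstream are the usual carriers of the mark. In length, a short region spans about 1 or a few nucleosomes, and a long one spans a longer stretch of chromatin. Single nucleosomes were not resolved here. The annotated start itself was covered by 599 of the 977 narrow tall regions (61.3%) and by 53.1% of all control promoter regions.

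Sequences from 250 bases before to 50 bases after the RefSeq start (GRCh38.p14) are shown for 2 sets of narrow tall promoters, all with a RefSeq start within 100 bp of the annotated one. THAP9, ALG9 and SH2B1 had the largest control fold among those that a testosterone region overlapped, and PLGRKT, SPATA2 and PCBP1 had the highest pileup among those that held the core ETS motif and no testosterone region. Each reads 5′ to 3′ on the strand of the gene. Capitals mark matches, on either strand, to any of 10 short motifs, and adjoining matches run together. Those found in these 6 promoters were the ETS factor core CCGGAA, the box CCAAT bound by the trimeric factor NF-Y, the sequence TGACGT recognized by CREB and ATF proteins, the sequence ACTACAA from the site of the zinc finger protein ZNF143, and the AP-1 site TGANTCA of FOS and JUN dimers. The motif GGGCGG of SP and KLF factors was counted too but is left in lower case because it is so frequent.
THAP9 (chr4:82900485-82900784, plus strand): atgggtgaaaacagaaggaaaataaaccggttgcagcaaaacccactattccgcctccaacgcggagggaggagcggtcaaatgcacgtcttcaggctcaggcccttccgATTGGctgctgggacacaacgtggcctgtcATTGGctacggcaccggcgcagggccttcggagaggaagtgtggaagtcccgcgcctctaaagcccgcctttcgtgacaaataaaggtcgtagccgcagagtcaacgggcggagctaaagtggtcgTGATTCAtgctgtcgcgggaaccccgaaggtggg
ALG9 (chr11:111871532-111871831, minus strand): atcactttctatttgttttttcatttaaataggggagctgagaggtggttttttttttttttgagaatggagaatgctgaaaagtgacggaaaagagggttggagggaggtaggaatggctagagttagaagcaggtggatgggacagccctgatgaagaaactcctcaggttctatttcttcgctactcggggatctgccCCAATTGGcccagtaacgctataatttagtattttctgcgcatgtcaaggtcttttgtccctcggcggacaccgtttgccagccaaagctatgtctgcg
SH2B1 (chr16:28846356-28846655, plus strand): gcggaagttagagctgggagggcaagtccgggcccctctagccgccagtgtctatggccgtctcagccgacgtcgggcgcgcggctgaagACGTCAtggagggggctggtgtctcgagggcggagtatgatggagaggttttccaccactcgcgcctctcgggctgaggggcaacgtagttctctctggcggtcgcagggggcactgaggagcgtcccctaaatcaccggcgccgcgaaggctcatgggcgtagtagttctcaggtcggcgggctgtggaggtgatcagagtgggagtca
PLGRKT (chr9:5437876-5438175, minus strand): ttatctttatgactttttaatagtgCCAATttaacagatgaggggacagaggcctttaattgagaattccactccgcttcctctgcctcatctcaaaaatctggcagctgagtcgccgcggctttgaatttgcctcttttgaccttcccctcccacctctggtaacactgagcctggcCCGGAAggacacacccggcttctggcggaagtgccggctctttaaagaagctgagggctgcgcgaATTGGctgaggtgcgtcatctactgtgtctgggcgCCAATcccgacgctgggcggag
SPATA2 (chr20:49915480-49915779, minus strand): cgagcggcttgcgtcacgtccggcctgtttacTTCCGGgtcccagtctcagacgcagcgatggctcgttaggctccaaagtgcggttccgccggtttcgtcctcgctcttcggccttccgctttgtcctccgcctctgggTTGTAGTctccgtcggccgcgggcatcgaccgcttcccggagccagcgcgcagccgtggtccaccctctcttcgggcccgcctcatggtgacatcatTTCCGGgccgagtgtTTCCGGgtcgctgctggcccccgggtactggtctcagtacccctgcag
PCBP1 (chr2:70087227-70087526, plus strand): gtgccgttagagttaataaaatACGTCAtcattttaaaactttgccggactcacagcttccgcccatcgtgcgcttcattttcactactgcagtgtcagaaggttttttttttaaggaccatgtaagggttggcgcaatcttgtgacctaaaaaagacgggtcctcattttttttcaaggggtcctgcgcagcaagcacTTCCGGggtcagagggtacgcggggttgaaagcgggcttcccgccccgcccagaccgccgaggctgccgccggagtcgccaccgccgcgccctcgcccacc

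In this printed window THAP9 held 2 CCAAT boxes on the opposite strand, at -140 and -110 bases from the start, and an AP-1 match at 17 bases after it. ALG9 held a pair of overlapping CCAAT matches on opposite strands at -49 and -46 bases, and SH2B1 held a CREB and ATF match at -160 bases. SPATA2 held 3 ETS cores, at -218, -13 and 3 bases, and a ZNF143 match at -110 bases. PLGRKT held 1 ETS core at -72 bases and PCBP1 held 1 at -51 bases. The summit lay outside these windows, 139 bp downstream of the RefSeq start at THAP9, 182 bp at ALG9, 130 bp at SH2B1, 185 bp at PLGRKT and 65 bp at PCBP1. At SPATA2 it lay at -105 bp, within the window.

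The narrow tall regions belonged to 960 genes, 17 of which had 2 such regions, and 99.1% of the regions were assigned to a protein-coding gene. Their median pileup was 29.0 (interquartile range 26.2 to 33.7, highest 61.8) and their median length 407 bp (322 to 501, shortest 231 bp). Fold enrichment, which the caller forms from pileup and local background after adding 1 to each, had a median of 6.85 (5.26 to 9.02). Among promoter regions of the same height but over 600 bp, of which there were 1309 and which are called wide tall here, the median pileup was 29.97, the median length 951 bp and the median fold 7.94. Promoter regions of the same length limit but lower pileup, 5875 narrow low regions, had a median pileup of 14.99, a median length of 358 bp and a median fold of 4.84.

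**Figure D1:**
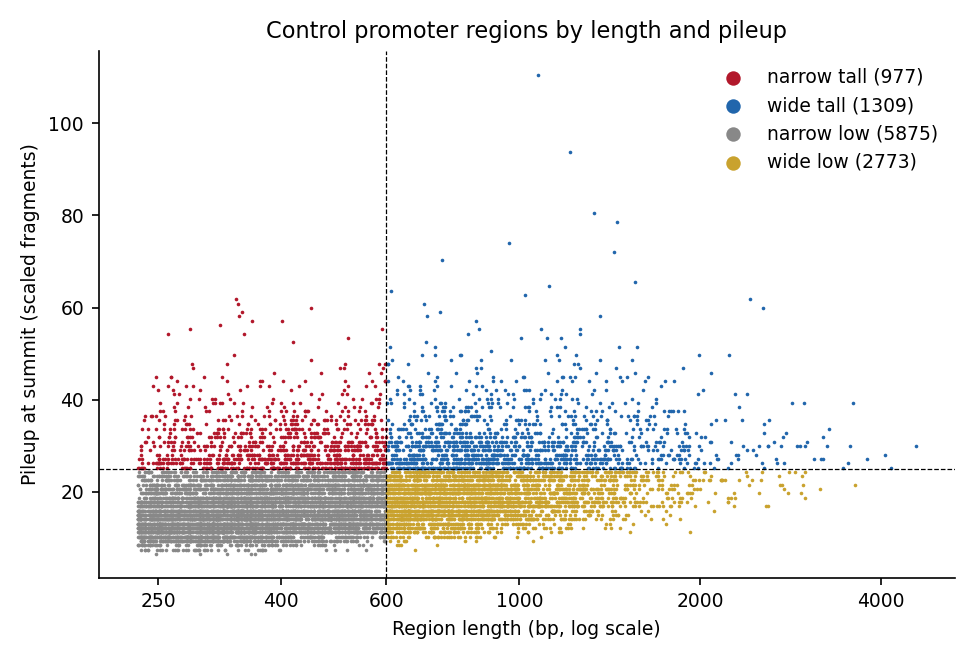
Pileup at the summit (scaled fragments) against length (bp, log scale) of the 10934 control promoter regions, 1 point per region, with dashed lines at a pileup of 25 and a length of 600 bp. The 977 narrow tall regions fill the upper left corner and reach a pileup of 61.8, and the regions around both limits form a continuum.

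Both limits ran through a continuous cloud of points. At the lower pileup limit 141 regions had exactly 25.3, among them those of AARS, the alanyl-tRNA synthetase, ACTL6A, a subunit of chromatin remodelers, and ADK, adenosine kinase. Another 139 short regions had the next value down, 24.4, among them those of ACTN1, ADAT1 and AC010522.1, and were left out. At the length limit, regions of 600 bp at RAB6A and of 599 bp at NEO1 and TIMP1 were kept, and those of 601 bp at GMFB, 602 bp at KAT6A and 603 bp at RPS19BP1 were not. The 3 shortest regions, at GRK6 (231 bp), MYADM (232 bp) and NF1 (232 bp), had pileups of 25.3, 27.2 and 25.3.

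The tallest of the set lay at genes of many functions. The region at DEAF1, a transcription factor gene, had a pileup of 61.8 over 337 bp (chromosome 11, 695310 to 695646) and a fold of 9.92. THAP9, which encodes a protein derived from a DNA transposase, followed with 60.9 over 339 bp and a fold of 18.6, and KIAA0895L with 59.9 and a fold of 7.62. Pileups of 59.0 and 58.1 were found at CTDSP2, a phosphatase gene, and PLGRKT, a plasminogen receptor gene, with folds of 13.4 and 6.56. CDK2AP2 and SPATA2 both had 57.1, TMEM19 had 56.2, and NPRL2, a subunit of the GATOR1 complex that restrains mTORC1, and PCCB, a subunit of propionyl-CoA carboxylase, both had 55.3. Pileups of 54.3 were measured at PCBP1, an RNA-binding protein gene, and at ERBB2, a receptor tyrosine kinase gene, where the region was only 260 bp long. The next were TCAIM (53.4), COPE, a coatomer subunit (52.5), SIN3A, the scaffold of a histone deacetylase complex (49.6), PARK7 (48.7), and OAF, THAP8, UBAP2L and the acetyltransferase gene KAT5 (47.8 each). Of these 20 regions, 17 had their summit downstream of the gene start.

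Height and enrichment ordered the regions differently. Among the largest folds were those of ABL1, a tyrosine kinase gene (19.2, pileup 44.0), and STAMBP, a deubiquitinase gene (18.8, pileup 44.0), ahead of THAP9. CDK2AP2, TBC1D10B, SMIM10L1 and PARK7 had folds of 17.5, 17.1, 16.9 and 16.1, at pileups of 57.1, 45.9, 39.3 and 48.7. In all, 13 regions had a fold of at least 15 and 85 had one under 4. The lowest folds were at LMBR1 (2.17), CNOT4, a subunit of the CCR4-NOT complex (2.45), CEP192, a centrosome protein gene (2.50), and MINPP1 (2.56).

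Local background was higher at these regions than at other promoter regions. The local background, solved from fold and pileup, had a median of 3.48 in the narrow tall regions (2.55 to 5), against 3 in the wide tall regions, 2.09 in the narrow low regions and 2.11 in all other promoter regions. A background of at least 5 was found at 292 of 977 narrow tall regions (29.9%, 27.1 to 32.8), at 19.1% of the wide tall regions (17.1 to 21.3) and at 5.16% of the narrow low regions (4.62 to 5.75). A region is called only where its pileup exceeds its background, so a low pileup leaves less room for a high background. The limit on pileup thus bears on the contrast with regions of lower pileup, and its part was not tested. Wide tall regions have the same limit. The highest was 17.0, at CNOT4, followed by 12 at LMBR1 and 11 each at SNED1, HADHA, MORF4L1, ANKAR and CEP192. By the usual arithmetic of the caller the background is the largest of several estimates from the input, and one equal to a whole number is what the input fragments on the site itself give when the input is not scaled. Backgrounds were whole numbers within 0.005 in 52.8% of the narrow tall regions (49.7 to 55.9), 48.5% of the wide tall regions (45.8 to 51.2) and 32.7% of the narrow low regions (31.5 to 33.9). Narrow tall regions with a whole-number background had a median fold of 5.79 and the rest one of 8.17, at the same median pileup of 29.0. Their median backgrounds were 4 and 2.78, and at equal pileup a higher background gives a lower fold by construction. The part of the input in the height of these regions was not tested.

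**Figure D2:**
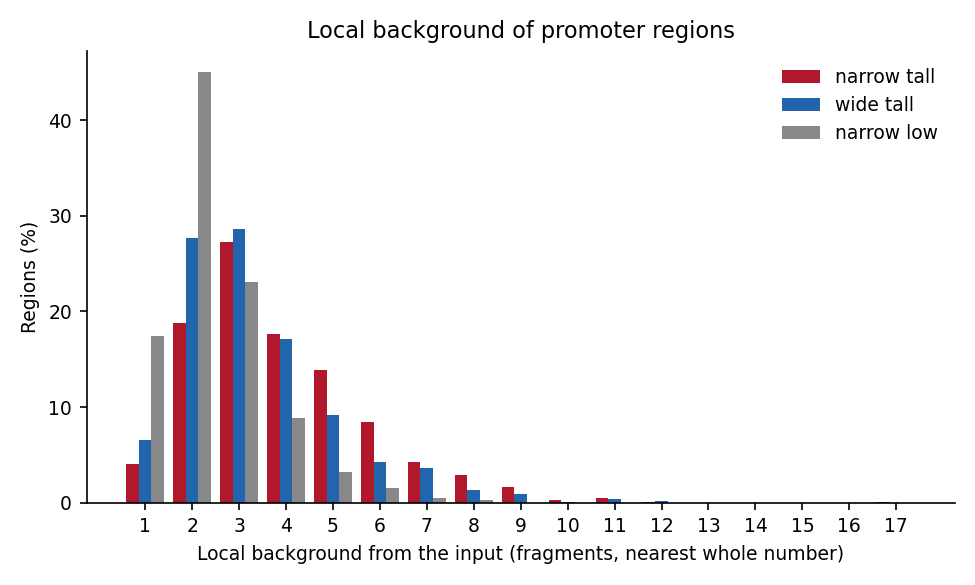
Percent of regions (vertical axis) by local background in fragments, rounded to the nearest whole number (horizontal axis), for narrow tall, wide tall and narrow low control promoter regions. Narrow tall regions, with a median of 3.48, have the largest share at backgrounds of 5 and above (29.9%).

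Summits of the narrow tall regions were gathered just inside the gene. The median position was 113 bp downstream of the annotated start (interquartile range -61 to 179 bp, negative values upstream), 72.9% lay downstream (70.0 to 75.6), and 80.04% lay within 300 bp of the start in either direction (77.4 to 82.4). In the interval from 50 to 200 bp downstream there were 480 of 977 summits (49.1%, 46.0 to 52.3). That interval held 26.9% of the summits of wide tall regions (24.6 to 29.4), 26.5% of those of narrow low regions (25.4 to 27.7) and 25.2% of those of all other promoter regions (24.3 to 26.0). The fullest bin of 50 bp ran from 100 to 149 bp and held 185 summits (18.9%). The medians alone did not show this, since they were 80 bp in wide tall, 117 bp in narrow low and 112 bp in all other promoter regions.

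**Figure D3:**
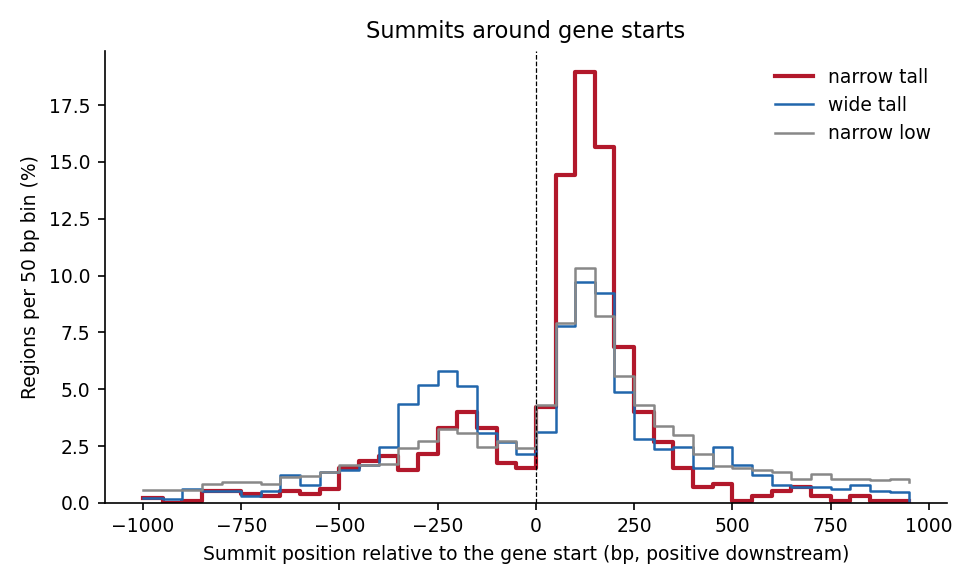
Percent of regions per 50 bp bin (vertical axis) by the position of the summit relative to the annotated gene start in bp, positive downstream (horizontal axis), for 3 sets of control promoter regions; 11 narrow tall summits beyond 1000 bp are not drawn. Narrow tall regions have 49.1% of their summits from 50 to 200 bp downstream, against 26.9% of wide tall and 26.5% of narrow low regions, and a smaller rise around 200 bp upstream.

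The annotation credits each region to the nearest transcript start, which draws distances toward short values in every set, and a region of at most 600 bp cannot reach as far from a start as a wide one. Narrow low regions have the same length limit. With RefSeq starts, which could be had for 762 of the narrow tall regions, the median was 125 bp downstream and 72.7% of summits lay within 300 bp. The share from 50 to 200 bp downstream is not given with RefSeq starts, and neither are the values of the other sets. Within the narrow tall set, 51.25% of the 80 regions with a pileup of at least 40 had the summit from 50 to 200 bp downstream (40.5 to 61.9), and 46.0% of the 589 with a pileup under 30 did (42.0 to 50.05). Over a wider range of height the position differed: the summit lay within 300 bp in 57.3% of narrow low regions, in 75.7% of short regions with a pileup of at least 20 and in 84.8% of those with at least 30. These sets are not separate: that of at least 20 contains all narrow tall regions, and that of at least 30 is a part of them. By length, the share of summits from 50 to 200 bp downstream was 60.2% among the 181 regions of up to 300 bp (53.0 to 67.1). Among the 245 regions over 500 bp that share was 44.5% (38.4 to 50.8).

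A smaller group of 265 regions (27.1%) had the summit upstream of the start, against 43.0% of wide tall and 34.7% of narrow low regions. Their fullest bin ran from -200 to -151 bp and held 39 summits (3.99%), and the 50 bp next to the start held 15. CTDSP2 (summit at -164 bp), SPATA2 (-126 bp), OAF (-18 bp) and TBC1D10B (-51 bp) were the tallest of these, ahead of EP300, the gene of the acetyltransferase p300 itself (-486 bp, pileup 44.96, fold 5.11). An opposite-strand RefSeq start within 1 kb upstream, the layout of a bidirectional promoter, was found for 56 of the 265 (21.1%, 16.7 to 26.4) and for 214 of all 977 (21.9%, 19.4 to 24.6), in a table that does not hold every gene. At 18 of the 56, the summit lay 50 to 200 bp inside the opposite gene. The farthest upstream summits belonged to C1orf61 (-1293 bp), RAI1 (-1251 bp) and ID1, a helix-loop-helix inhibitor gene (-1100 bp), and the farthest downstream to OCLN, the gene of the tight junction protein occludin (1178 bp), FAM174B (1138 bp) and KCTD2 (1113 bp). In each of these the nearest edge of the region lay within 1 kb of a start, so the annotation still applied.

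Most of the narrow tall regions stood alone, as did most control regions in general. No other control region lay within 1 kb of 617 narrow tall regions, and 360 had one (36.85%, 33.9 to 39.9), against 32.5% of wide tall (29.99 to 35.05) and 41.5% of narrow low regions (40.3 to 42.8). A neighbor was found for 38.8% of all control promoter regions (37.9 to 39.7) and 33.2% of all control regions (32.5 to 33.8). The regions that stood alone had a median summit position of 122 bp downstream, and 56.1% of their summits lay from 50 to 200 bp downstream (52.1 to 59.9). Those with a neighbor had a median of 83.5 bp and a share of 37.2% (32.4 to 42.3), and 39.2% of them had the summit upstream. The neighbors formed 411 pairs, with a median distance of 819 bp between summits (649.5 to 1029). In 268 pairs (65.2%) the summits lay on opposite sides of the start. The neighbor was itself narrow and tall in 38 pairs, counted from both sides, as at CHD9, a chromatin remodeler gene, with summits at -34 and 760 bp (pileups 29.0 and 26.2), and at GATAD2A, a subunit of the NuRD complex, with summits at -543 and 298 bp from the start annotated for the first (30.9 and 26.2).

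By chromosome, narrow tall regions made up between 5.03% and 12.2% of promoter regions, except on chromosome 13. There, 0 of 91 control promoter regions were narrow and tall, which allows a share of up to 3.30% by the limit of 3 counts and 4.05% by the Wilson interval, and 1 was wide and tall. The share was highest on chromosome 1, at 137 of 1125 (12.2%, 10.4 to 14.2), and it was 5.03% on X (2.67 to 9.28) and 5.22% on chromosome 9 (3.53 to 7.65). The median pileup of all promoter regions was 12.2 on chromosome 13, 14.1 on X and 19.7 on chromosome 1. The median local background, which comes from the input, moved with it, at 1.09 on chromosome 13, 1.72 on X and 2.78 on chromosome 1, while the median fold was 5.41, 5.33 and 5.36. Chromosome 9 differed from that order, with a median pileup of 17.8 and a background of 2.46. A limit set on pileup passes fewer regions where both libraries have fewer fragments, and the part of this in the counts by chromosome was not tested.

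**Figure D4:**
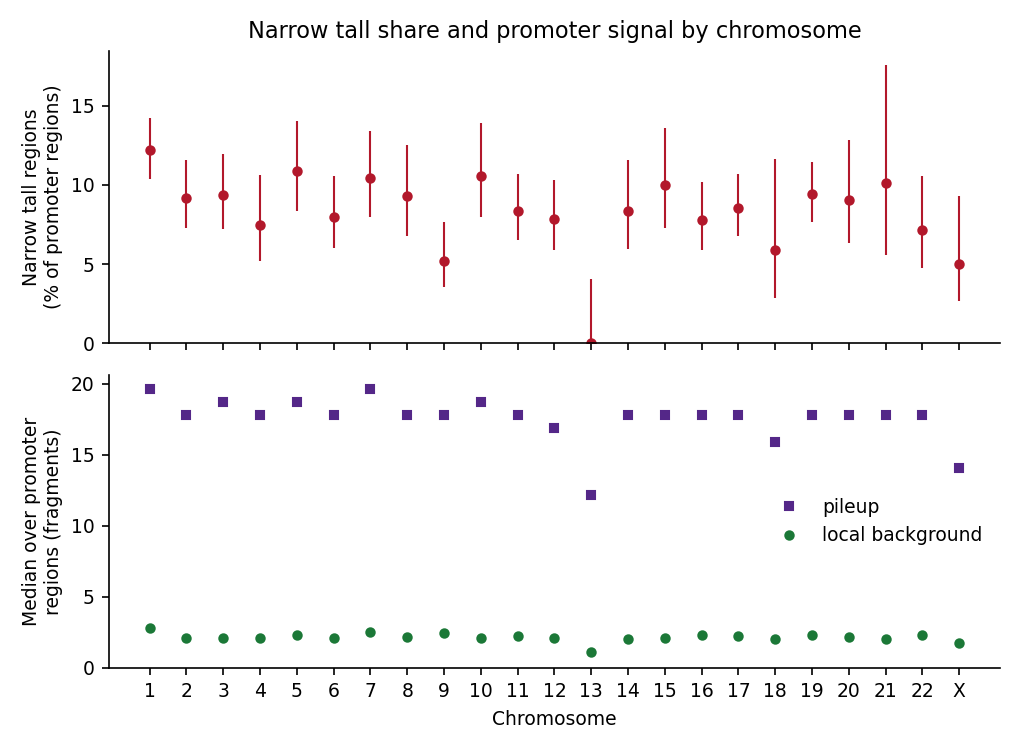
Upper panel: narrow tall regions as a percent of control promoter regions on each chromosome, with Wilson 95% intervals. Lower panel: median pileup and median local background of all control promoter regions (fragments). Chromosome 13 has no narrow tall region among 91 and the lowest medians, 12.2 and 1.09, and chromosome 1 has the highest share, 12.2%.

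Gene families were counted by symbol among the 960 genes and set beside their share of all 8286 genes with a control promoter region. Zinc finger genes were the largest family, with 42 genes (4.38%, against 3.60% of all), led by ZKSCAN5 (pileup 45.9, fold 15.2) and ZNF212 (44.0, fold 11.3), and 22 of their 42 summits lay from 50 to 200 bp downstream. Splicing factor genes numbered 15 (1.56%, against 0.784%), led by SNRPA, a U1 snRNP protein (39.3), and SF3B4, a U2 snRNP protein (36.5). Respiratory chain genes numbered 13 (1.35%, against 0.724%), led by NDUFS8, a complex I subunit (40.3), and COX14, an assembly factor of cytochrome oxidase (33.7). Cytosolic ribosomal protein genes numbered 9 (0.938%, against 0.688%), among them RPS27L (36.5), and translation factor and tRNA synthetase genes 10 (1.04%, against 0.724%), led by VARS2 (33.7) and MARS (29.97). Replication and repair genes numbered 7 (0.729%, against 0.459%), led by the checkpoint kinase gene ATM (39.3) and RPA3, a subunit of the single-strand binding protein RPA (34.7). Counts this small leave the shares uncertain, and no family was tested.

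The other families were near or below their share of all promoter genes. Solute carriers numbered 17 (1.77%, against 1.86%), led by SLC41A1 (43.1) and SLC5A6 (42.2), and ubiquitin system genes also 17 (1.77%, against 1.80%), led by STAMBP and USP16. TMEM genes numbered 7 (0.729%, against 1.38%), with TMEM19 and TMEM267 (38.4) the tallest. Rab GTPase genes numbered 6 (0.625%, against 0.555%), led by RAB6A (31.8) and RAB4B (29.97), transcription machinery genes 7 (0.729%, against 0.712%), led by GTF2IRD2B (42.2) and MED19 (38.4), and mitochondrial ribosome genes 4 (0.417%, against 0.543%), led by MRPS36 (35.6) and MRPL15 (34.7). GTF2IRD2B was placed in its group by its symbol alone, and it has near-identical copies, between which reads are hard to place.

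Of the 6 histone genes (0.625%, against 0.555% of all promoter genes) and the 4 immediate early genes (0.417%, against 0.302%), 1 and 0 had the summit from 50 to 200 bp downstream, where 49.1% of all narrow tall regions had it. Among the 7 replication and repair genes it was 2, and these counts are too small to set the groups apart. The histone genes had a median summit position of 230.5 bp downstream. H2AFZ, a variant histone gene, was the tallest (44.0), with the summit at -322 bp, and HIST1H3H (33.7) followed, 208 bp downstream. Histone genes have near-identical copies, so reads may be misplaced among them. The 4 immediate early genes of a list of 25 were FOS (summit at -117 bp, pileup 40.3), DUSP1 (-360 bp, 32.8), IER2 (838 bp, 27.2) and FOSB (680 bp, 27.2). None of 24 granulosa identity and steroidogenesis genes was among the narrow tall regions, and 8 of the 24 had a control promoter region of another shape. Of all 8286 genes with a control promoter region, 960 had a narrow tall one, so an absence among 8 does not set these genes apart.

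Promoter sequences could be matched for 762 of the 977 regions (77.99%), in 751 promoters. The match was under 80%, and 72.4% for the other promoter regions, so a check of sequence over the whole sets is void, and the shares that follow describe the matched promoters alone. The ETS core CCGGAA was found in 265 of the 751 (35.3%, 32.0 to 38.8), against 31.4% of matched wide tall promoters (28.6 to 34.4), 29.8% of narrow low ones (28.4 to 31.3) and 17.2% of all 35116 promoters of the RefSeq table. The longer form CCGGAAGT was found in 10.8% of the narrow tall promoters. CCAAT was found in 43.0% (39.5 to 46.6), against 28.9% of wide tall (26.2 to 31.8), 37.7% of narrow low (36.1 to 39.2) and 34.6% of all. ETS cores had a median position of -46 bp and CCAAT matches one of -101.5 bp. The window searched ran from 250 bases before to 50 bases after the start. Most of it is upstream, and no match could be seen farther inside the gene, where the summits gathered. These positions therefore do not tell where the motifs lie relative to the summits. AAGATGGC, the YY1 motif, was found in 7.72% (6.02 to 9.86), at a median of 13 bp after the start, against 5.49% of wide tall, 5.71% of narrow low and 2.89% of all promoters.

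The remaining motifs were searched in the same way. The SP and KLF motif GGGCGG was found in 75.6% of matched narrow tall promoters, against 79.2% of wide tall, 75.9% of narrow low and 45.0% of all promoters. The CREB and ATF motif TGACGT was found in 14.25% of narrow tall promoters, against 12.2%, 11.7% and 7.98% in the same order of sets, and the ZNF143 motif ACTACAA in 4.93%, against 3.69%, 3.39% and 2.77%. The NRF1 core GCATGCGC was found in 6.13%, against 4.99%, 5.93% and 3.05%, and the core CTCGCGAG of the factor BANP in 2.80%, against 3.69%, 1.98% and 1.02%. The E-box CACGTG was found in 9.45%, against 10.2%, 10.1% and 7.26%. The TATA box, searched as TATAAA, was found in 5.86%, against 3.89%, 4.99% and 11.5%, and the AP-1 site in 3.73%, against 3.49%, 3.98% and 7.71%. Both were thus less frequent in each set of marked promoters than in the RefSeq table. The median GC content of the matched narrow tall promoters was 65.3%, against 69.3% in wide tall, 66.3% in narrow low and 58.7% in all promoters.

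Few of these places held a called region in the testosterone list, and few control regions of any kind did. A testosterone region overlapped 15 of the 977 narrow tall regions by at least 1 bp (1.54%, 0.933 to 2.52), where it overlapped 0.884% of all control regions and likewise 0.884% of the other promoter regions. The share was 2.67% among wide tall regions (1.93 to 3.70) and 0.391% among narrow low regions (0.261 to 0.587). The interval of the narrow tall regions overlaps that of the wide tall regions. It also overlaps those of all control regions (0.761 to 1.03) and of the other promoter regions (0.718 to 1.09). It lies above that of the narrow low regions. Among narrow tall regions with a pileup of at least 40 the share was 3 of 80 (3.75%), and among those under 30 it was 6 of 589 (1.02%). Over short regions with a pileup of at least 20 the share was 0.815%, and with testosterone regions of −log10 q of at least 5 it was 0.307%, while counting testosterone regions within 1 kb gave 2.66%. Seen from the testosterone list, 15 of 604 regions (2.48%) lay on a narrow tall region. A missing region means that none was called, not that no acetylation was left: the testosterone list had its own depth and background, and the pileup of its regions on these sites began at 10. Of the 20 tallest regions, THAP9 alone was overlapped.

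Pileup and fold are on the scale of each list and are set side by side without a ratio. THAP9 had a pileup of 17 and a fold of 6.79 in the testosterone list, against 60.9 and 18.6 in the control list, and the summits lay 3 bp apart. At USP16, which encodes a deubiquitinase of histone H2A, the values were 16 and 5.11 with testosterone, against 43.1 and 5.51 in control, with summits 37 bp apart. NARF, whose product binds prelamin A, had 16 and 7.39 with testosterone, against 43.1 and 8.82 in control, with summits 17 bp apart. RSRC1, a splicing-related gene, had 12 and 6.03 with testosterone, against 39.3 and 5.76 in control, with summits 27 bp apart. These were the only 4 of the 15 with summits within 50 bp of each other, and they were also the 4 tallest of the 15 in control cells.

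IER2, an immediate early gene, had the largest fold of the 15 in the testosterone list, 7.89 at a pileup of 16, against 5.63 at 27.2 in control. Its summit lay 752 bp downstream of the annotated start with testosterone and 838 bp downstream in control. ALG9, a mannosyltransferase gene of N-glycosylation, had a pileup of 11 and a fold of 5.55 with testosterone, against 26.2 and 12.7 in control. SH2B1, an adaptor gene of insulin and cytokine receptor signaling, had 11 and 4.37 with testosterone, against 36.5 and 10.6 in control, and its summits lay 230 bp apart, the widest gap of the 15. CDC37L1, related to the HSP90 cochaperone CDC37, had 13 and 4.68 with testosterone, against 31.8 and 9.25 in control. ZFHX2, a homeobox gene, had 10 and 4.01 with testosterone, against 36.5 and 9.38 in control.

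The remaining 6 had testosterone pileups of 10 to 13. RPS4X, a ribosomal protein gene, had 13 and a fold of 5.39 with testosterone, against 25.3 and 5.08 in control. PRCC had 13 and 4.75 with testosterone, against 26.2 and 6.94 in control. RAI1, a chromatin protein gene, had 11 and 5.57 with testosterone, against 28.1 and 5.82 in control, with the summit at -1183 bp with testosterone and at -1251 bp in control. The heterochromatin protein gene BAHD1 had 10 and 4.01 with testosterone, against 26.2 and 5.78 in control. CYB5D2 had 10 and 4.76 with testosterone, against 32.8 and 6.76 in control. HIST1H2BL, a histone H2B gene of a family with near-identical copies, had 10 and 4.17 with testosterone, against 31.8 and 4.69 in control.

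**Figure D5:**
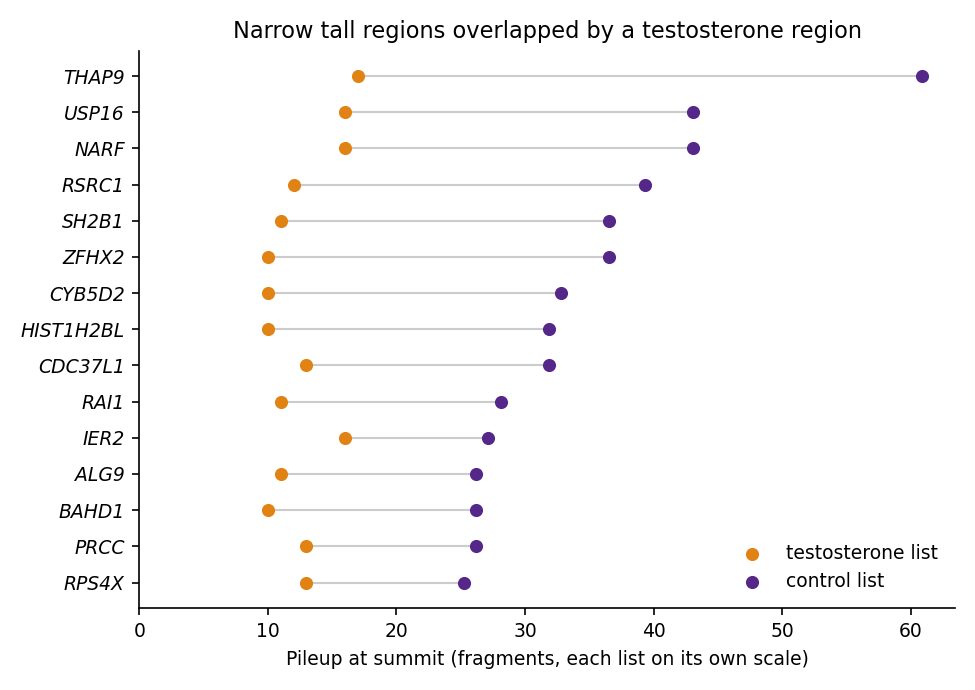
Pileup at the summit (fragments, each list on its own scale) at the 15 narrow tall promoter regions that a testosterone region overlapped, with the testosterone list in orange and the control list in purple. Testosterone pileups lie between 10 and 17 and control pileups between 25.3 and 60.9, and THAP9 is highest in both.

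Over the 15 sites the testosterone regions had a median length of 306 bp (227 to 520) and a median fold of 5.11 (4.01 to 7.89), and the control regions had a median length of 428 bp and a median fold of 6.76 (4.69 to 18.6). Median distance between the summits was 86 bp. Of the testosterone summits, 12 lay downstream of the start and 3 lay from 50 to 200 bp downstream of the start, against 7 of the control summits. The median control pileup was 31.8 at the 15 sites, against 29.0 at the 962 sites without a testosterone region. A further 11 narrow tall regions had a testosterone region within 1 kb that did not touch them. At ZNF143, a transcription factor gene, the gap was 3 bp, and the testosterone summit lay at -582 bp (pileup 15, fold 7.40), against a control summit at 65 bp (pileup 25.3, fold 11.3). S100A2 had the highest testosterone pileup of the 11 (19, with the summit at -690 bp), against a control pileup of 38.4 with the summit at 113 bp. CHMP4A, the gene of an ESCRT-III subunit, had the highest control values of the 11, with a testosterone region of pileup 12 and fold 6.03 at -472 bp, against a control region of pileup 46.8 and fold 15.9 at 236 bp.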

How the data were processed

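H3K27ac regions of 1 IP against its input per group were used as deposited by the authors. Per the submitters' processing notes, Bowtie2 2.0, MACS2, ChIPseeker and bedtools were used, and both hg38 and mm10 are named; no source used here gives the caller's settings or the build of these lists. RefSeq starts on GRCh38.p14 lay within 1000 bp of the annotated start for 762 of 977 regions, so positions were read as GRCh38. Per the file headers, the authors deposited the pileup, a signal in fragments at the summit. Scaling of the control list by the caller was inferred from the step of 0.937 between its pileup values. The authors also deposited fold enrichment, a ratio of IP to local background made by the caller for each region. Significance was deposited by the authors as −log10 p and −log10 q of each region, as the caller computed them, and in the testosterone list both had lost their headers and were identified by order and values.

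Summit positions were computed with the strand and start of the annotation, backgrounds as (pileup + 1) / fold − 1, and overlaps over at least 1 bp. Promoter sequences are from RefSeq (GRCh38.p14), matched by gene, strand and a start within 1000 bp. Of 11 motifs, NRF1 and BANP were searched with 8-base cores in place of the longer forms planned. Named genes were the tallest 20, the largest folds, extremes of position and length, those at the limits, the tallest 2 of each of 15 gene groups and every region overlapped by a testosterone region; genes with 2 such regions were named as well. Genes of lowest fold or highest background, EP300, FOSB and those near a testosterone region without overlap were chosen after their values were seen. Some genes that the rule takes are left out of the text. The members and lists were chosen with earlier results of these data known, and the shown promoters were limited to starts within 100 bp after seeing the data. Code was tested on simulated data. Python 3.11.15, pandas 2.3.3, scipy 1.17.1 and statsmodels 0.14.6 were used.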

Additional observations from a re-analysis of the deposited data

How the results depend on the processing

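Of 56 values under alternatives, 40 stayed within the 95% interval of the reported value and 16 moved outside it. Only the median summit position could change sign, and it stayed downstream under each of its alternatives. The share of narrow tall regions with a testosterone overlap, 1.54%, became 2.66% when a testosterone region within 1 kb counted, 0.307% with testosterone regions of −log10 q of at least 5, and 0.815% at a pileup of at least 20. The median summit position, 113 bp, became 132.5 bp for the region's center and 125 bp with RefSeq starts. The share of summits within 300 bp, 80.04%, became 75.7% and 84.8% at pileups of at least 20 and 30, 85.1% at a fold of at least 8 and 72.7% with RefSeq starts. Regions with a neighbor, 36.85%, became 27.1% within 500 bp and 41.25% within 2 kb. The median fold, 6.85, became 6.38 and 7.43 at pileups of at least 20 and 30, and 9.75 at a fold of at least 8, by construction. The share with the ETS core, 35.3%, became 31.0% in a window of 150 bases before the start to 50 after it and 10.8% for CCGGAAGT. The cause of these shifts was not tested, except where the alternative widens or narrows the count itself. No paired analysis was possible because each group had 1 IP library. Leaving out a replicate was not possible for the same reason.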

Other observations

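Genes with 2 narrow tall regions numbered 17, and no testosterone region lay within 1 kb of any of them. ADM, the gene of the vasodilator peptide adrenomedullin, had a summit at -104 bp and a second at 911 bp from the same annotated start (pileups 27.2 and 25.3), and ERRFI1, a feedback inhibitor gene of EGFR signaling, had them at -1034 and -223 bp (25.3 and 27.2). VDAC2, the gene of a mitochondrial outer membrane channel, had them at 100 and 166 bp (26.2 and 31.8), each counted from the transcript start nearest to it. CHPF2, a chondroitin synthesis gene, had the most uneven pair of the 17, with a pileup of 39.3 at 95 bp and of 27.2 at 982 bp from the same start.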
